A study of Mus musculus with 67 samples.

Results

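Ly6C- monocytes were compared with Ly6Cint monocytes in 8 of the 67 RNA-seq libraries of this mouse series, and all 11066 genes that passed a filter on low values were tested. The 8 libraries were chosen by their labels: 4 hold Ly6C- and 4 hold Ly6Cint host cells, in each case 2 from blood and 2 from spleen, marked A and B. The animals were C57BL/6 mice, aged 8 weeks, that had received transferred monocytes, and the label of every one of these libraries gives host cells and 24 h. Blood cells were sorted by flow cytometry after Ficoll separation and spleen cells after red cell lysis with ACK buffer, so tissue and preparation cannot be told apart. RNA was captured on oligo-dT beads. The labels do not say whether A and B are different animals or pools, so the p-values measure the spread between these samples, which may be technical. Other libraries served as reference only: 4 host Ly6C+ libraries of blood and spleen, 6 blood libraries of 7-week C57BL/6 mice, and 4 blood libraries of 16-week wt mice of mixed background, the last 2 sets enriched for CD115 without red cell lysis.

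Monocytes are circulating phagocytes that in the mouse are sorted by the surface antigen Ly6C. Ly6C+ (classical) monocytes leave the marrow in answer to chemokines bound by Ccr2 and enter inflamed tissue. Ly6C- (patrolling) monocytes crawl along the inside of vessels, clear debris there and depend on the nuclear receptor Nr4a1. Part of the Ly6C+ cells become Ly6C- cells in the circulation, and cells with an intermediate level, Ly6Cint, include cells on that path. The comparison of Ly6C- with Ly6Cint cells therefore covers the last sorted step, and doing it in blood and in spleen shows which differences appeared in both places.

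Each library held 502661 to 1180802 reads over the listed genes, as rebuilt from the step between neighbouring values, with blood Ly6Cint A the shallowest and blood Ly6Cint B the deepest. All values are given as counts per 1000000 over a library's listed genes (CPM), in the order A then B and with Ly6Cint before Ly6C-, and a value of 0 allows a level of up to 2.54 to 5.97 CPM, counting error only. The monocyte markers were present in all 8 libraries: Csf1r, the receptor for macrophage colony-stimulating factor, ranged from 1192 to 2328, Itgam (CD11b) from 331 to 577, Lyz2 (lysozyme) from 4860.4 to 10936 and Cd68 from 454 to 710.4. Haemoglobin and other erythroid genes had a sum of 9609.6 and 4144 CPM in blood Ly6Cint, 10059 and 3922 in blood Ly6C-, 1027 and 144 in spleen Ly6Cint and 1171 and 179.7 in spleen Ly6C-. This sum was higher in library A than in library B of every population, and it did not separate Ly6C- from Ly6Cint in either tissue. B cell markers summed to 106 and 66.6 in blood Ly6Cint against 122 and 110.5 in blood Ly6C-, and to 183 and 186 in spleen Ly6Cint against 334 and 458 in spleen Ly6C-, higher in Ly6C- without overlap in both tissues. The blood gap was narrow, 106 against 110.5, with 1 read worth 1.99 CPM in blood Ly6Cint A. The median log2 ratio of these markers was 0.093 in blood and 0.865 in spleen, against 0.042 and 0.083 over all genes. The sum of T and NK cell markers was lower in Ly6C- without overlap, at 54.3 and 52.1 against 17.5 and 5.26 in blood and 172 and 165 against 71.9 and 134 in spleen. A single member, Klrk1, gave 41.6 and 21.0 against 3.51 and 0 of these sums in blood. In spleen it gave 83.7 and 98.6 against 26.7 and 73.6. Neutrophil markers summed to 241 and 239 against 236 and 172 in blood and 265 and 237 against 213 and 185 in spleen, lower in Ly6C- in each tissue. In blood the nearest values, 239 and 236, were close together. Platelet markers (9.64 to 156) and plasmacytoid dendritic cell and basophil markers (107 to 246) overlapped between the populations. The part of such cells in the results was not tested.

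With tissue as a block, 383 of the 11066 genes (3.46%) passed an adjusted p of 0.05 (limma on log2 of CPM plus 1, Benjamini-Hochberg over all genes). Of these, 194 (1.75%) were higher in Ly6C- and 189 (1.71%) were lower. In 350 of the 383 both Ly6C- libraries lay on the same side of both Ly6Cint libraries within each tissue. The same 8 libraries made the calls, so such separation follows largely from the selection and is no separate support. The median log2 ratio was 0.99 for the genes that rose and -1.30 for those that fell, and 94 rose and 123 fell by more than 1 on the log2 scale. Tested by tissue, 66 genes (0.596%) were called in blood, 16 higher and 50 lower, and 105 (0.949%) in spleen, 65 higher and 40 lower. The tissues shared 27 calls, which are 40.9% of the blood list and 25.7% of the spleen list, and all 27 had the same direction. Leaving out any 1 of the 8 libraries lowered the blood count to between 0 and 45 and the spleen count to between 0 and 61. The split of higher and lower calls moved with the scaling, from 50.7% higher to 37.2% with median-ratio factors (147 of 395) and 37.9% with edgeR (174 of 459). The median of all genes was 0.07 with the scaling as deposited and 0.01 with either. The count fell to 83 where the spread was taken from all 26 libraries of the table, grafts included, and to 201, 237 and 229 without spleen Ly6Cint A, spleen Ly6C- A and spleen Ly6C- B. Without blood Ly6Cint B it was 605.

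**Figure D1:**
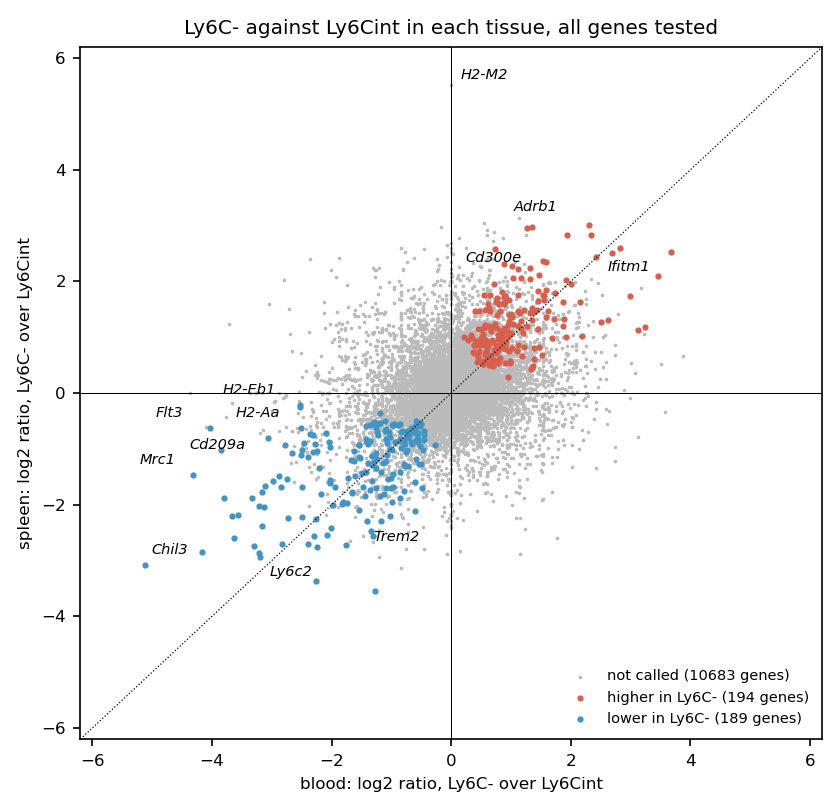
Log2 ratio of Ly6C- over Ly6Cint in blood (x axis) and in spleen (y axis) for the 11066 genes tested, with genes called in both tissues together in red (194 higher) and blue (189 lower). The dotted line marks equal ratios: H2-Aa, H2-Eb1, Cd209a and Flt3 lie to the left of it, with lower ratios in blood than in spleen, Ly6c2 and Ifitm1 lie close to it, and Cd300e lies above it.

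The antigen that defines the sort fell, together with secreted proteins of classical monocytes. Of 16 tested genes of a list for Ly6C+ monocytes, 6 fell and 0 rose, with a median log2 ratio of -0.87 against 0.07 over all genes. The list and those that follow were drawn up with earlier results of these data known. Over all genes 1.75% rose and 1.71% fell, and each list's counts are to be read beside these shares. Ly6c2, which encodes a Ly6C antigen, read 287 and 96.4 CPM in blood Ly6Cint and 18.4 and 16.2 in blood Ly6C-, and 456 and 333 against 67.5 and 37.3 in the same populations of the spleen. The populations did not overlap in either tissue, and the log2 ratio was -3.06 ± 0.26 (SE, 4 against 4 libraries, adjusted p = 9.06e-08). Its neighbour Ly6c1, which shares much of its sequence, was too low to be tested, at 0 to 2.19 in these libraries. How the reads of the pair were divided is not given in the sources used here.

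Chil3, a secreted chitinase-like protein abundant in classical monocytes, gave the lowest log2 ratio of all called genes. It read 352 and 246 in blood Ly6Cint and 13.6 and 3.94 in blood Ly6C-, and 1066 and 348 against 54.3 and 92.0 in spleen, a log2 ratio of -4.10 ± 0.36 (adjusted p = 1.22e-07). Spleen Ly6C- cells thus held more Chil3 than blood Ly6C- cells, in every library. F13a1, the A subunit of coagulation factor XIII, showed the same order: 143 and 61.8 against 11.0 and 3.94 in blood, 344 and 187 against 45.1 and 37.3 in spleen, with a log2 ratio of -3.11 ± 0.31 (adjusted p = 7.27e-07). Ccr2, the chemokine receptor that lets monocytes leave the marrow, was 877 and 377 in blood Ly6Cint against 326 and 89.4 in blood Ly6C-, and 1049.6 and 1057 against 223 and 319 in spleen (log2 ratio -1.86 ± 0.27, adjusted p = 1.19e-04). Its lower blood Ly6Cint library and higher blood Ly6C- library lay close together, the spleen groups far apart. The other called members were Fn1 (fibronectin, -2.26) and Plac8 (-1.14). Lyz2 (-0.12), Cd14 (-0.16) and Vcan (-0.33) did not pass the test.

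**Figure D2:**
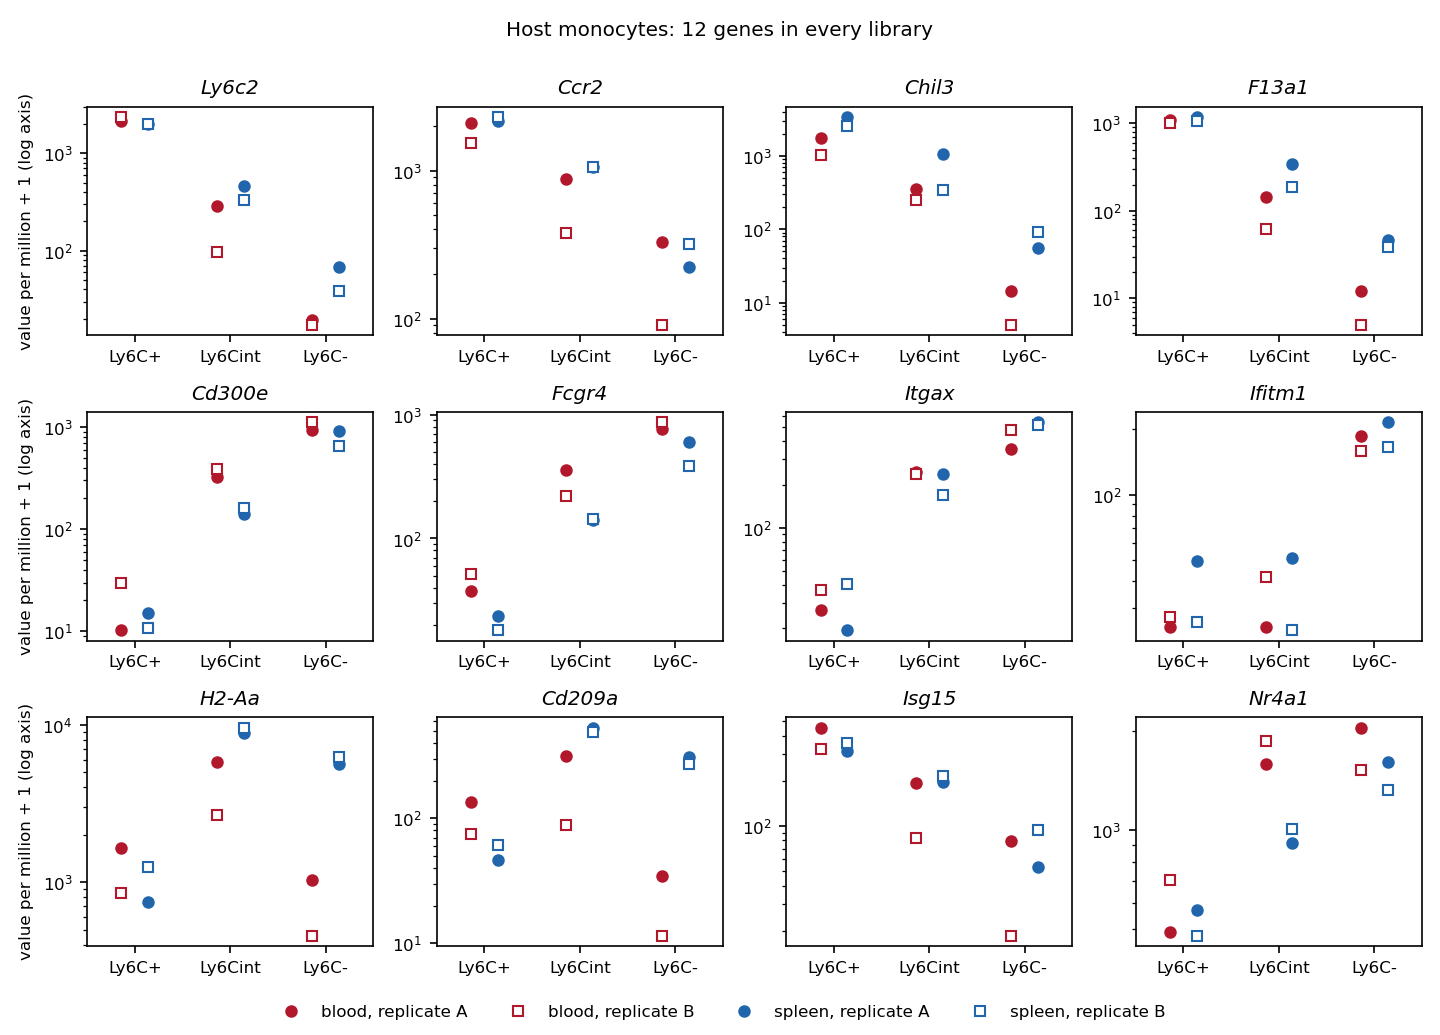
CPM plus 1 on a log axis in every host library of 12 genes, for Ly6C+, Ly6Cint and Ly6C- monocytes of blood (red) and spleen (blue), replicate A filled and B open. Ly6c2, Ccr2, Chil3 and F13a1 step down from Ly6C+ to Ly6C-, Cd300e, Fcgr4 and Itgax step up, Ifitm1 is high in the Ly6C- libraries alone, and H2-Aa is higher in Ly6Cint than in either other population of the same tissue.

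Most genes on a list for Ly6C- monocytes rose. Of its 25 members, all tested, 16 rose and 0 fell, and the median log2 ratio was 0.97. Cd300e, an activating receptor of the CD300 family, stood at 320.3 and 386 CPM in blood Ly6Cint and 929.9 and 1111 in blood Ly6C-, and at 139 and 161 against 919.7 and 658 in spleen. Its log2 ratio was 1.95 ± 0.17 (adjusted p = 1.18e-07), and each tissue alone also passed the test (1.53 in blood, 2.37 in spleen). Fcgr4, the Fc receptor for IgG2 antibodies that marks these cells, rose from 356 and 221 to 765 and 867 in blood and from 141 and 142 to 599 and 385 in spleen (log2 ratio 1.65 ± 0.17, adjusted p = 9.13e-07). Blood Ly6Cint cells already held more of both genes than spleen Ly6Cint cells did. Cd9, a membrane tetraspanin, read 145 and 195 against 402 and 459 in blood and 93.4 and 145 against 349 and 320.4 in spleen (log2 ratio 1.43 ± 0.16).

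Dusp16, a phosphatase of the JNK and p38 kinases, rose with a log2 ratio of 1.61 ± 0.21, Itgax (CD11c) with 1.09 ± 0.16 and Pecam1, a junction protein of platelets, endothelium and leukocytes, with 1.75 ± 0.29. Itgax was 244 and 236 in blood Ly6Cint and 353 and 479 in blood Ly6C-, and 235 and 169 against 539 and 515 in spleen. The remaining called members of the list were Cd274, S1pr5, Fabp4, Pparg, Tgm2, Cd36, Cd300ld, Treml4, Ear2 and Pou2f2. The 9 that did not pass include genes that are used to name the population. Nr4a1, the nuclear receptor that Ly6C- monocytes need, read 1589 and 1865 CPM in blood Ly6Cint and 2047 and 1521 in blood Ly6C-, where the groups overlapped, and 913 and 1002 against 1615 and 1324 in spleen, where they did not (log2 ratio 0.32 ± 0.16, adjusted p = 0.297). Its host Ly6C+ values, 488 and 702 in blood and 570.4 and 476 in spleen, were below all of these. Cx3cr1, the fractalkine receptor, was 893 and 694 against 899 and 878 in blood and 717 and 706 against 725 and 823 in spleen, a log2 ratio of 0.15 ± 0.14 (adjusted p = 0.645). Bcl2, which blocks cell death, had a log2 ratio of 0.57 ± 0.20 (adjusted p = 0.135).

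The rule for named genes took the 15 largest rises among called genes that separated the populations in each tissue and reached 20 CPM, and the 15 largest falls. Ifitm1, an interferon-induced membrane protein, led the rises at 2.43 ± 0.23 (adjusted p = 4.12e-07). It read 23.7 and 40.7 against 185 and 157 in blood and 50.0 and 22.8 against 213 and 164 in spleen, and the ratios of the tissues were alike, 2.42 and 2.44. In host Ly6C+ cells it read 23.7 and 26.3 in blood and 48.6 and 24.98 in spleen, the range of the Ly6Cint libraries. Adrb1, the beta-1 adrenergic receptor, was 45.6 and 46.4 against 117 and 121 in blood and 13.6 and 34.6 against 161 and 195 in spleen (2.16 ± 0.29, adjusted p = 4.13e-05). Host Ly6C+ cells held 1.31 and 3.51 in blood and 0.876 and 4.38 in spleen. Cd83, an immunoglobulin-family membrane protein of activated antigen-presenting cells, read 21.9 and 23.7 against 63.1 and 77.6 in blood and 6.57 and 21.5 against 66.2 and 65.3 in spleen (1.97 ± 0.31). Cd180, a Toll-like receptor homologue, was 10.1 and 6.13 against 32.4 and 37.3 in blood and 9.64 and 11.0 against 41.6 and 44.3 in spleen (1.98 ± 0.34), and its host Ly6C+ values, 27.2 and 31.1 in blood and 26.3 and 32.4 in spleen, exceeded those of every Ly6Cint library. In these host libraries Cd180 was thus lowest in the population between, and its step from Ly6C+ to Ly6Cint was not tested. At 7 weeks its ratio of Ly6C- over Ly6Cint was -0.45 (adjusted p = 0.725, limma).

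Lilra5, an activating leukocyte immunoglobulin-like receptor, rose by 1.79 ± 0.19 on the log2 scale, Serpinb6a, an inhibitor of proteases, by 1.89, Vegfc, a growth factor for lymphatic vessels, by 1.71, and the transcription factors Tbx6 and Ets1 by 1.96 and 1.68. Haus5, a subunit of the augmin complex of the spindle, rose by 1.89, and Phxr4 by 1.67. Slc5a11, a transporter of myo-inositol, and Impact, a regulator of translation, complete the 15. Slc5a11 (2.11) lost its call without any 1 of 6 libraries (all but blood Ly6Cint A and spleen Ly6Cint B), with log2 ratios of 1.26 to 2.35, and Impact (1.77) without spleen Ly6Cint A (1.58), spleen Ly6C- A (1.77) or spleen Ly6C- B (1.76). Slc5a11 was low, at 15.8 and 6.57 against 29.8 and 22.8 CPM in blood and 0 and 9.64 against 24.5 and 24.1 in spleen.

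Among the 15 largest falls, Smim5, a small membrane protein, read 25.8 and 11.0 in blood Ly6Cint and 0 in both blood Ly6C- libraries, at least 9.54-fold lower with 3 reads over both libraries as the floor, and 53.9 and 38.6 against 5.70 and 5.26 in spleen. Cd7, an immunoglobulin-family receptor best known from T and NK cells, was 25.8 and 32.9 against 3.51 and 1.31 in blood and 191 and 129.7 against 41.6 and 34.6 in spleen, a log2 ratio of -2.62 ± 0.33 (adjusted p = 2.19e-05). Host Ly6C+ cells held 11.4 and 3.51 in blood and 9.64 and 8.77 in spleen, less than any Ly6Cint library. Capg, an actin-capping protein of phagocytes, was 107 and 55.2 against 21.0 and 5.26 in blood and 243 and 167 against 44.3 and 39.9 in spleen (-2.48 ± 0.31), below the 521 and 472 of blood and 681 and 457 of spleen Ly6C+ cells. Cd209d, a C-type lectin, showed 15.8 and 11.0 against 0 and 1.31 in blood and 42.1 and 24.1 against 1.31 and 7.89 in spleen (-3.04 ± 0.54). Klrk1, which encodes the NKG2D receptor, was the single called member of 14 tested T and NK cell markers, at 41.6 and 21.0 against 3.51 and 0 in blood and 83.7 and 98.6 against 26.7 and 73.6 in spleen (-2.43 ± 0.51). The rule required the populations of these 15 genes to separate in each tissue. For Klrk1 the ratio was -3.85 in blood (adjusted p = 0.0102) and -1.01 in spleen (adjusted p = 0.62). The transcription cofactor Lmo1 (-2.93), the small adaptor Bex6 (-2.87) and Upb1, an enzyme of pyrimidine breakdown (-2.76), fell too. Gas7 (-2.47) lost its call without blood Ly6Cint A (-2.11), blood Ly6C- A (-1.87), spleen Ly6Cint A (-2.26) or spleen Ly6C- B (-2.37). Igfbp4, an IGF-binding protein (-2.59), lost it without any 1 of 5 libraries (blood Ly6Cint A, blood Ly6C- B, both of spleen Ly6Cint and spleen Ly6C- A), with ratios of -2.87 to -1.77. Its blood Ly6Cint values were 63.5 and 4.38.

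Of 35 transcription factors tested, 3 rose and 3 fell, with a median of 0.04. Pparg, a nuclear receptor for fatty acids, rose from 143 and 118 to 226 and 256 CPM in blood and from 35.1 and 80.6 to 167 and 187 in spleen (log2 ratio 1.30 ± 0.22, adjusted p = 6.36e-04). Its host Ly6C+ values were 18.0 and 27.6 in blood and 12.3 and 21.5 in spleen. Pou2f2, the octamer-binding factor Oct2, rose by 0.63 ± 0.15 and Tcf7l2, which acts downstream of Wnt signals, by 0.90 ± 0.21. Pou2f2 lost its call without any 1 of the 4 spleen libraries (0.56 to 0.61), and Tcf7l2 without blood Ly6C- A (0.88), spleen Ly6Cint B (0.73), spleen Ly6C- A (0.77) or spleen Ly6C- B (0.93).

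Maf, a factor of tissue macrophages, fell from 35.9 and 31.5 to 6.14 and 6.57 in blood and from 22.8 and 14.5 to 7.01 and 0 in spleen (-2.50 ± 0.53, adjusted p = 0.00615), but without spleen Ly6Cint A its log2 ratio of -2.32 was not called. Irf7, which switches on interferon genes, fell (-0.66 ± 0.17, adjusted p = 0.0253). Cebpa, the C/EBP factor that drives granulocyte and monocyte development, was 95.5 and 95.5 against 69.2 and 62.7 in blood and 129.7 and 109 against 59.2 and 64.0 in spleen, and its populations did not overlap in either tissue (-0.73 ± 0.19, adjusted p = 0.0253). Its call was lost without blood Ly6C- B (-0.75), spleen Ly6Cint A (-0.64), spleen Ly6Cint B (-0.74), spleen Ly6C- A (-0.67) or spleen Ly6C- B (-0.72). Cebpb, the family member in the title of the series, read 2234 and 2646 against 2589.9 and 2954 in blood, where the groups overlapped, and 939 and 1188 against 1573 and 1516 in spleen, where they did not (0.37 ± 0.15, adjusted p = 0.188). Cebpd was 106 and 163 against 130.2 and 142 in blood and 128 and 108 against 74.1 and 90.7 in spleen (-0.23 ± 0.19, adjusted p = 0.586). The lineage factors Spi1 (-0.21 ± 0.15) and Irf8 (-0.14 ± 0.16) and the Krüppel-like factors Klf2 (0.10 ± 0.15) and Klf4 (0.40 ± 0.15) did not pass. The ratio of Klf2 was -0.02 without blood Ly6Cint A.

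MHC class II genes, whose products present antigen to CD4 T cells, were lower in Ly6C- than in Ly6Cint cells. Of 11 tested, 6 fell (H2-Aa, H2-Ab1, H2-Eb1, Cd74, H2-DMa and H2-DMb1) and 0 rose, with a median of -1.15. In blood alone 6 were called, the same genes but for H2-DMb1 (adjusted p = 0.0526) and with Ciita, and in spleen alone 0 of 11. H2-Aa, the alpha chain of I-A, stood at 5742 and 2649 CPM in blood Ly6Cint and at 1023 and 456 in blood Ly6C-, and at 8903 and 9551 against 5647 and 6259 in spleen. Its log2 ratio was -2.51 ± 0.35 in blood (adjusted p = 0.00271) and -0.63 ± 0.35 in spleen (adjusted p = 0.532). The populations did not overlap in either tissue, the spleen Ly6C- values lay close to the higher blood Ly6Cint library, and the blood Ly6C- values overlapped those of blood Ly6C+ cells (1645 and 845). H2-Eb1, the beta chain of I-E, read 3151 and 1046 against 508 and 193 in blood and 3335 and 4533 against 3112 and 3593 in spleen, where the groups overlapped. Its fall over both tissues (-1.37 ± 0.35, adjusted p = 0.0253) was lost without blood Ly6Cint A (-0.82), blood Ly6C- B (-0.86) or spleen Ly6Cint B (-1.52).

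The invariant chain Cd74, which guides class II molecules through the cell, was 7723 and 4508 against 2382 and 2043 in blood and 11666 and 13686 against 7449.8 and 6805 in spleen (-1.12 ± 0.19, adjusted p = 5.01e-04). Quantile scaling ended its call (-0.82, adjusted p = 0.109) and that of H2-Eb1 (-1.24). The peptide-loading chains H2-DMa (-1.39 in blood, -0.91 in spleen) and H2-DMb1 (-1.39 and -1.25) had more nearly equal ratios in the tissues. Ciita, the factor that switches class II genes on, read 258 and 84.6 against 43.4 and 9.20 in blood and 351 and 341 against 356 and 295 in spleen, where the populations overlapped. In blood its library A exceeded library B in both populations, as for H2-Aa, H2-Ab1 and H2-Eb1.

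The difference between the tissues was tested for every gene. Of 11066 genes 0 (0.0%) passed an adjusted p of 0.05 with limma, 534 (4.83%) had an unadjusted p under 0.05, and edgeR called 0 as well, with 582 at an unadjusted p under 0.05. The ratio of H2-Eb1 was higher in spleen than in blood by 2.31 ± 0.60 on the log2 scale (unadjusted p = 0.00149), that of H2-Aa by 1.88 ± 0.49 (0.00152), that of Cd209a by 2.26 ± 0.67 (0.00414) and that of H2-Ab1 by 1.63 ± 0.59 (0.0135), and the adjusted p was 0.925 for each. That of Ciita was higher by 2.71 (unadjusted p = 0.00207, adjusted p = 0.925). These are the 5 genes called with a block for letter within tissue, given below. Their differences had the same sign in all 22 alternatives run, which refit the same libraries and are no separate support.

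**Figure D3:**
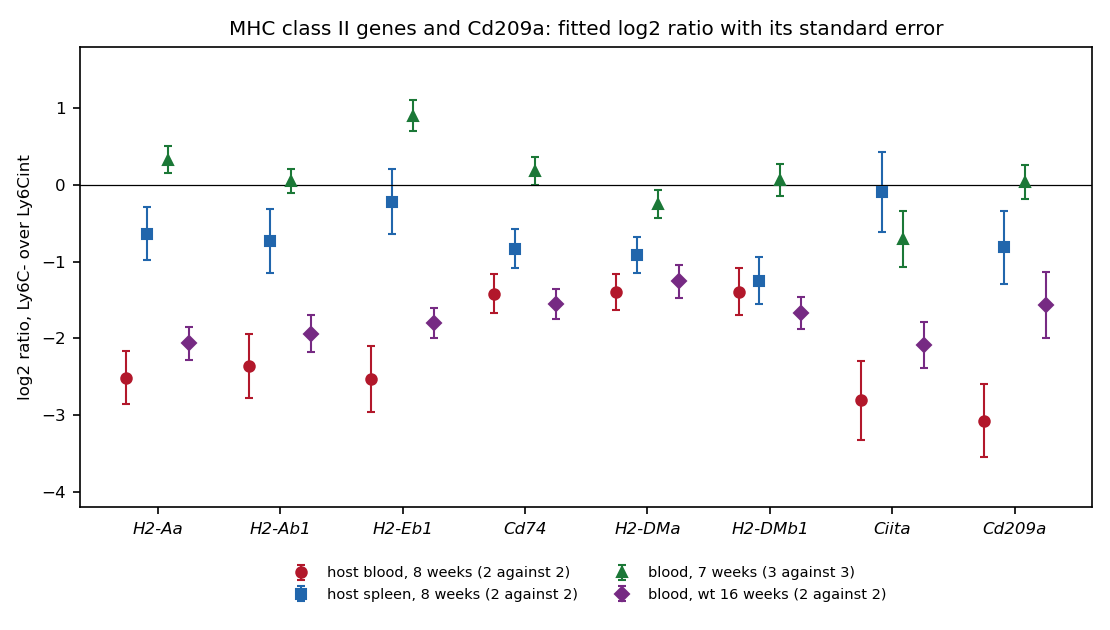
Fitted log2 ratio of Ly6C- over Ly6Cint with its standard error for 6 called MHC class II genes, Ciita and Cd209a in host blood, host spleen, blood of 7-week mice and blood of 16-week wt mice. Host blood and 16-week blood lie below -1 for all 8 genes, host spleen lies between host blood and 0, and 7-week blood lies within 1 of 0.

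Some genes of conventional dendritic cells were lower in Ly6C- cells. Of 15 tested, 4 fell and 0 rose, with a median of -0.76. The list's median was -0.665 in blood and -0.622 in spleen, against -1.39 and -0.217 for the class II list. Cd209a (DC-SIGN), which also marks a subset of monocytes, was 312 and 88.1 against 33.3 and 10.5 CPM in blood and 530.3 and 487 against 308 and 273 in spleen (-1.94 ± 0.37, adjusted p = 0.00229). Flt3, the cytokine receptor of dendritic cell precursors, was 33.7 and 17.1 against 1.31 and 0 in blood and 94.7 and 84.1 against 57.8 and 57.4 in spleen (-2.33 ± 0.50). Batf3, a factor of cross-presenting dendritic cells, fell with a log2 ratio of -1.24 ± 0.25 and Naaa, a lysosomal amidase, with one of -0.77 ± 0.16, the latter not called without spleen Ly6Cint A (-0.67). The 17 genes of this list summed to 879 and 601 in blood Ly6Cint against 395 and 359 in blood Ly6C-, and to 1501 and 1362 against 875 and 911 in spleen. In blood Ly6C+ cells the sum was 1019 and 947. Of the defining markers Xcr1 read 0 in 7 of the 8 libraries and 2.63 in spleen Ly6Cint A, and Clec9a ranged from 0 to 32.4, highest in spleen Ly6Cint. In bulk samples fewer cells of a type and less RNA per cell cannot be told apart, and the part of dendritic cells in the class II result was not tested.

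Part of the interferon-induced genes fell. Of 38 tested, 8 fell (Isg15, Ifit1, Oasl2, Rsad2, Ifi27l2a, Oas2, Bst2 and Irf7) and 0 rose, 34 had a negative log2 ratio, and the median was -0.60 against 0.07 over all genes. Tested by tissue, 0 were called in blood and 0 in spleen. Isg15, a ubiquitin-like modifier, read 191 and 81.9 CPM in blood Ly6Cint and 78.0 and 17.5 in blood Ly6C-, and 195 and 213 against 52.1 and 93.4 in spleen (-1.63 ± 0.31, adjusted p = 0.00261). Bst2 (tetherin), which holds budding virus at the membrane, was tight between replicates, at 251 and 248 against 142 and 133 in blood and 309 and 292 against 149.9 and 180.1 in spleen (-0.86 ± 0.15, adjusted p = 7.25e-04). The ratio was -1.29 ± 0.26 for Rsad2 (viperin) and -1.04 ± 0.21 for Ifi27l2a, whose blood values overlapped. Host Ly6C+ cells were higher again, with Isg15 at 450.0 and 323 in blood and 312 and 358 in spleen and Bst2 at 439.9 and 418 and 401 and 428. Ifitm1, above, went the other way. The count of called genes was 11 with median-ratio scaling, 13 with edgeR and 3 with the spread of all 26 libraries, in each case all lower.

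The promoters of these genes are shown because interferon acts through a short repeat, GAAA, any 2 bases and GAAA, bound by the factors that its receptor activates. RefSeq windows from 250 bases before to 50 after a start site (build GRCm38.p6) were searched on both strands for it, for the C/EBP motif TTGCNNAA and for the NR4A motif AAAGGTCA. The interferon motif occurred in 3.44% of all 32851 windows, the C/EBP motif in 10.8% and the NR4A motif in 1.51%. Windows were found for 77.8% of the genes that rose, 77.8% of those that fell and 71.1% of the interferon list, under the 80% set as a minimum, so shares over these sets are void. Of the 8 called interferon genes 6 (75.0%) have a window, also under that minimum. Among them Isg15, Ifit1, Rsad2 and Bst2 hold a match. In the whole interferon list, called or not, 16 of the 27 genes with a window hold one, so a match does not mark the genes that fell. Of the 8880 tested genes with a window, 349 (3.93%) hold one. Among called genes with a window, 10 of 151 that rose and 13 of 147 that fell hold one, counts given without a comparison. Fcgr4, Haus5 and Serpinb6a are among those that rose. Stretches upstream of the start site follow, 5′ to 3′ on the gene's strand, with every match in capitals. The matches in Isg15 overlap each other, and those in Ifit1 and Rsad2 are on the opposite strand. They lie at chr4:156200835-156200936 (Isg15, minus strand), chr19:34640745-34640853 (Ifit1, plus), chr12:26456523-26456612 (Rsad2, minus) and chr1:171018813-171018902 (Fcgr4, plus).
Isg15: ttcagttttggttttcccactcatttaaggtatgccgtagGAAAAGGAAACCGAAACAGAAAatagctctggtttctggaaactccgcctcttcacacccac
Ifit1: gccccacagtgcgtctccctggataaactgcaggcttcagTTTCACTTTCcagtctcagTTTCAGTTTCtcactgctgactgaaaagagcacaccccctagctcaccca
Rsad2: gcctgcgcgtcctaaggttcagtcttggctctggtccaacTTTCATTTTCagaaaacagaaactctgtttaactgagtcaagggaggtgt
Fcgr4: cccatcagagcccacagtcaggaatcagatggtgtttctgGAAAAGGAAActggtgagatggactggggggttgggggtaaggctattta
A match is a description of the letters and not a bound site.

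Receptors for antibody and the paired receptors of phagocytes changed in both directions. Of 27 tested, 5 rose (Cd300e, Lilra5, Fcgr4, Cd300ld and Treml4) and 4 fell (Lilra6, Trem2, Clec4a2 and Fcgr1), with a median of 0.07. Trem2, a lipid receptor of macrophages and microglia, read 102 and 72.7 against 34.6 and 29.4 CPM in blood and 51.3 and 53.0 against 10.5 and 9.20 in spleen (-1.85 ± 0.27, adjusted p = 1.55e-04). Fcgr1, the high-affinity IgG receptor, fell (log2 ratio -1.21 ± 0.20) while Fcgr4 rose, and Fcgr3 (-0.23) and their shared signalling chain Fcer1g (0.12) did not pass. Lilra6 belongs to a family of near-identical genes, so its value (-1.90) is uncertain.

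Among 34 adhesion and chemotaxis genes 6 rose (Pecam1, Cd9, Icam2, S1pr5, Itgax and Itga4) and 2 fell (Ccr2 and Itgb7), with a median of 0.18. S1pr5, a receptor for sphingosine 1-phosphate that directs exit into blood, was 266 and 444 against 493 and 640.3 in blood and 92.0 and 175 against 536 and 458 in spleen (1.33 ± 0.23, adjusted p = 6.54e-04), and blood Ly6Cint cells held more of it than spleen Ly6Cint cells in every library. The integrin chains Itgal (0.21), Itgam (-0.15) and Itgb2 (0.18), used by monocytes to hold on to vessel walls, did not pass.

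Of 26 genes of lipid handling 5 rose and 1 fell, with a median of 0.12. Fabp4, a fatty acid carrier and Pparg target, rose from 229 and 329 to 536 and 543 CPM in blood and from 122 and 222 to 524 and 522 in spleen (1.32 ± 0.18, adjusted p = 8.30e-05). Cd36, a scavenger receptor that takes up oxidized lipid, was 85.4 and 134 against 160.0 and 157 in blood and 37.7 and 68.4 against 140.2 and 149 in spleen (1.03 ± 0.22), and its call was lost without spleen Ly6Cint A (0.77) or spleen Ly6C- B (0.92). Host Ly6C+ cells held 9.20 and 15.8 in blood and 4.38 and 3.07 in spleen. Abcg1 (0.60) and Pltp (0.66), which move cholesterol and phospholipid out of cells and between lipoproteins, rose. Npc2, which carries cholesterol out of lysosomes, fell from 1183 and 834 to 573 and 379 in blood and from 1294 and 890.5 to 455 and 470.3 in spleen (-1.15 ± 0.16, adjusted p = 8.81e-05). Sqle, an enzyme of sterol synthesis (-1.67), did not pass.

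Of 25 survival and apoptosis genes 2 rose, Bcl2a1b (0.92 ± 0.16, adjusted p = 0.00105) and Bcl2a1d (0.78 ± 0.22, adjusted p = 0.0499), and the median was 0.23. Both encode the anti-apoptotic protein A1 and belong to a family of copies of nearly the same sequence, so the division of reads between them is uncertain. Bcl2a1d lost its call without any 1 of 6 libraries (all but spleen Ly6Cint B and blood Ly6Cint B), with ratios of 0.61 to 0.85. Mcl1 (0.14) and the death-promoting Bcl2l11 (-0.14) and Bax (-0.14) did not pass.

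Of 24 genes of the NF-kappaB pathway and cytokines 3 rose, Cd83, Nfkbiz and Il1b, and 1 fell, Ccl5 (median 0.01). Nfkbiz, a nuclear inhibitor-family protein that shapes NF-kappaB output, was 107 and 123 against 186 and 268 in blood and 129.7 and 145 against 275 and 286 in spleen (0.99 ± 0.16, adjusted p = 4.20e-04). Il1b, a pyrogenic cytokine, read 471 and 194 against 1119.7 and 673 in blood and 167 and 339.6 against 313 and 468 in spleen, where the groups overlapped (1.10 ± 0.25), and its call was lost without blood Ly6C- A (0.87), spleen Ly6Cint A (0.98) or spleen Ly6C- B (1.07). Ccl5 (-1.24) lost its call without spleen Ly6Cint B (-1.20) or spleen Ly6C- A (-1.21).

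Of 25 immediate early and feedback genes, which respond within minutes to handling as well as to signals, 3 rose and 0 fell (median 0.34). Zfp36l1, which hastens decay of AU-rich messages, rose from 133 and 65.3 to 284 and 334 in blood and from 73.2 and 117 to 239 and 231 in spleen (1.52 ± 0.20, adjusted p = 4.13e-05). Dusp1, a phosphatase of MAP kinases, was 233 and 269.9 against 614 and 418 in blood and 25.9 and 27.6 against 45.1 and 49.5 in spleen (0.91 ± 0.18), and each blood value exceeded every spleen value. Dusp2 (0.72 ± 0.19) lost its call without any 1 of 5 libraries (the 2 blood Ly6C- libraries, blood Ly6Cint B, spleen Ly6Cint A and spleen Ly6C- B), with ratios of 0.54 to 0.73. Fos (-0.57), Jun (0.44) and Egr1 (1.28) did not pass.

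Complement and scavenger genes were lower in Ly6C- cells where they differed. Of 23 tested, 8 fell (Mrc1, Axl, Cd93, C1qc, Msr1, Clec7a, Lgals3 and Scarb1) and 0 rose, with a median of -0.69. Cd93, a receptor linked to the uptake of dying cells, was 57.8 and 23.7 against 4.82 and 14.5 CPM in blood and 93.4 and 87.6 against 14.9 and 17.5 in spleen (-2.21 ± 0.35, adjusted p = 3.08e-04). Axl, a receptor tyrosine kinase for dying cells, was 57.8 and 38.1 against 14.9 and 1.31 in blood and 73.2 and 60.04 against 17.5 and 26.7 in spleen (-2.28 ± 0.44). The mannose receptor Mrc1 read 49.5 and 17.1 against 0 and 1.31 in blood and 37.7 and 25.4 against 10.5 and 10.5 in spleen (-2.89 ± 0.55). C1qc, a chain of the first complement component, was 117 and 163 against 24.98 and 35.9 in blood and 78.4 and 24.1 against 9.20 and 14.9 in spleen (-1.99 ± 0.31, adjusted p = 2.94e-04), and host Ly6C+ cells held 62.2 and 48.2 in blood and 12.3 and 0.877 in spleen. Its populations did not overlap in either tissue. Markers of tissue macrophages, some of which are the same genes, summed to 931 and 549 in blood Ly6Cint against 348 and 391 in blood Ly6C-, and to 731 and 463 against 277 and 331 in spleen. Of 13 tested 2 fell (Axl and C1qc), Clec4f and Vsig4 read 0 in all 8 libraries, and their part in the result was not tested.

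Of 27 lysosomal genes 2 fell, Npc2 and the protease Ctsc (-0.91 ± 0.16, adjusted p = 0.00117), with a median of -0.07. Of 77 ribosomal protein genes 2 fell, Rplp0 (-0.71 ± 0.13) and Rps9 (-0.64 ± 0.15), 58 had a negative ratio, and the median was -0.23. Over all genes 3.46% were called and 1.71% fell, so these small counts of calls are no result about either list. Rplp0 was 1459.9 and 1476 against 929.9 and 837 in blood and 1381 and 1532 against 891 and 906 in spleen, and Rps9 lost its call without spleen Ly6Cint A (-0.63) or spleen Ly6C- B (-0.55). Of 32 cell cycle genes limma called 0 and edgeR 1, with 6 at an unadjusted p under 0.05 and a median of 0.11. Neutrophil, B cell, erythroid, platelet, and plasmacytoid dendritic cell and basophil markers gave 0 calls of 8, 11, 9, 9 and 4 tested (1, 1, 0, 1 and 0 with edgeR, 2, 3, 0, 1 and 0 at an unadjusted p under 0.05 with limma), with medians of -0.69, 0.48, 0.29, -0.57 and -0.25.

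**Figure D4:**
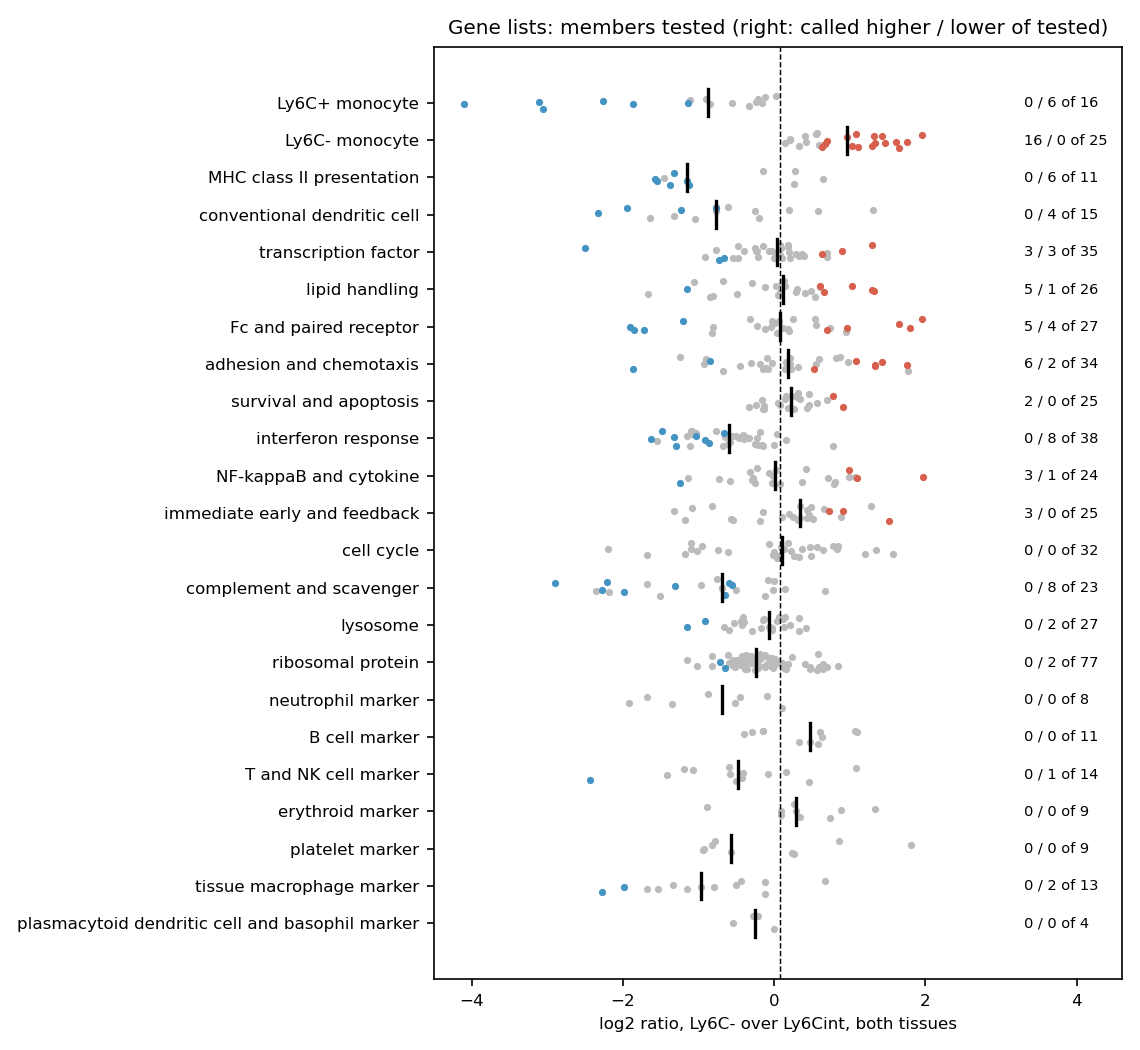
Log2 ratio of Ly6C- over Ly6Cint in both tissues for the tested members of 23 gene lists, one dot a gene, red for called higher, blue for called lower, grey for not called, with a black bar at each list's median and a dashed line at the median of all genes (0.07). The Ly6C- monocyte list lies to the right of the line with 16 of 25 called higher, and the MHC class II, interferon and complement lists lie mostly to its left.

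The 10 genes with the smallest p for a difference between tissues and at least 20 CPM in some group were H2-M2, Adcy7, Flt3, Ccnd1, Slamf7, Slc3a2, Fbxw5, H2-Eb1, H2-Aa and Fcgr2b, and for all 10 the adjusted p was 0.925. H2-M2, a non-classical MHC gene, read 0 in both spleen Ly6Cint libraries and 42.9 and 46.9 in spleen Ly6C- (adjusted p = 0.00209 in spleen), at least 23.5-fold higher with 3 reads over both libraries as the floor, and 0 in all 4 blood libraries. Over both tissues together H2-M2 was not called (adjusted p = 0.0617), and it was called in 12 of 22 alternatives. Flt3, described with the dendritic cell genes, fell in blood (adjusted p = 0.00148), where a single read was left in Ly6C-, and its spleen ratio was -0.62 (adjusted p = 0.73). Slamf7, a receptor of the SLAM family, was 99.5 and 56.1 against 11.0 and 9.20 in blood and 159.5 and 193 against 87.2 and 96.0 in spleen. Its ratio was -2.78 in blood (adjusted p = 9.29e-04) and -0.93 in spleen (adjusted p = 0.252). Ccnd1 (cyclin D1) read 91.6 and 42.5 against 11.0 and 9.20 in blood and 78.4 and 96.0 against 62.7 and 85.5 in spleen, where the groups overlapped, and its call over both tissues (-1.38) was lost without blood Ly6Cint A (-0.94), blood Ly6C- A (-1.20) or blood Ly6C- B (-1.11). Adcy7, an adenylate cyclase of blood cells, was 162 and 144 against 327 and 369.9 in spleen (1.18, adjusted p = 0.0057) and 301 and 316 against 290.1 and 288 in blood (-0.09, adjusted p = 0.901).

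The same contrast was available in blood of other mice, in libraries that share no sample with the hosts but come from tables normalized separately. In 7-week C57BL/6 blood (3 against 3) 219 of 10562 genes (2.07%) were called, and in 16-week wt blood (2 against 2) 5 of 9813 (0.051%). Leaving out 1 library moved these counts to between 26 and 1088 (the latter without the first Ly6C- library) and to between 0 (without either Ly6C- library) and 1141 (without the second Ly6Cint library). Of the 194 genes that rose in the hosts 191 were tested at 7 weeks, where 175 had a positive ratio and 60 were called higher. Of the 189 that fell 186 were tested, 150 had a negative ratio and 45 were called lower. Over all genes tested at 7 weeks 56.3% had a positive and 43.7% a negative ratio, against 91.6% and 80.6% in the 2 host lists. At 16 weeks 191 of 192 of the genes that rose and 175 of 183 of those that fell had the same sign, against 61.4% and 38.6% over all genes. At 16 weeks 638 genes had an unadjusted p under 0.05, and 1 and 4 of the host genes were called there.

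Of the 30 genes with the largest rises and falls in the hosts, 29 were tested in each of the other tables. At 7 weeks 27 of 29 had the same sign as in the hosts and 15 were called, and at 16 weeks 29 of 29 had the same sign and 1 was called, Cd300e. Its log2 ratio was 2.42 at 7 weeks (adjusted p = 6.92e-05) and 1.81 at 16 weeks (adjusted p = 0.046). At 16 weeks Ifitm1 (1.47, adjusted p = 0.397), Ly6c2 (-1.68, 0.758) and Chil3 (-2.62, 0.724) were not called, and at 7 weeks their ratios were 1.74 (0.00452), -3.52 (6.92e-05) and -4.80 (1.35e-10). The opposite sign at 7 weeks was that of Cd180 (-0.45, adjusted p = 0.725) and Mrc1 (0.51, adjusted p = 0.464). Nr4a1 (0.80, adjusted p = 0.0163), Cebpb (1.00, adjusted p = 0.0127) and Klf2 (0.75, adjusted p = 0.0376) passed the test at 7 weeks and not in the hosts, and the difference between the tables was not tested. A single host call was called in the opposite direction at 7 weeks, H2-Eb1. Its 7-week values were 1984, 1652 and 1761 CPM in Ly6Cint and 2301, 4654 and 3549 in Ly6C- (0.91 ± 0.20, adjusted p = 0.0236), and its 16-week values 2247 and 1911 against 623 and 571 (-1.80 ± 0.19, adjusted p = 0.046). H2-Aa read 4137, 3955 and 4314 against 3911, 6824 and 5267 at 7 weeks, where the groups overlapped (0.33, adjusted p = 0.364), and 6069 and 7179.6 against 1367 and 1824 at 16 weeks (-2.06, adjusted p = 0.046). The median ratio of the 11 class II genes was 0.06 at 7 weeks and -1.55 at 16 weeks. Age, strain background, transfer and preparation differ between these sets and cannot be told apart.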

How the data were processed

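RNA-seq values were deposited by the authors as 3 tables of 1 column per library. The submitters' processing notes list HOMER, SAMtools, bcl2fastq and HISAT (version 0.1.5), without their roles, and build mm9. The values in the table of the transferred and host cells are gene counts that the authors had scaled to a common total and rounded, so they were treated as a score and not as reads. The other 2 deposited tables hold scaled, unrounded signal values. How reads were assigned to genes is not given in the sources used here. Each column was divided by its sum over the 24421 listed genes and multiplied by 1000000. Genes with at least 2 of these units (CPM) in at least 2 of the 8 libraries were kept, and log2 of the value plus 1 was fitted with limma 3.58.1 (R 4.3.3, mean-variance trend), with population and tissue as terms. Blood, spleen and their difference were taken from a fit of the 4 group means. Adjusted p-values are Benjamini-Hochberg over all genes tested, with a threshold of 0.05, and called means past it. A fold change on this scale understates the change of low genes. The code was tested on simulated data.

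Values in each column of the transferred and host table lie on whole multiples of 1 step, to within 0.5 of a deposited unit, which gives the 502661 to 1180802 reads per library. edgeR 4.0.16 was run on these rebuilt reads as an alternative added after the data were seen. The labels do not tie the letters A and B to an animal, litter or day, and each tissue has only 2 same-lettered pairs, so the libraries were not treated as paired.

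The comparison, its groups and the gene lists were chosen with earlier results of these data known. Genes were named by 1 rule: the 15 largest ratios in each direction among called genes that separate the populations in each tissue and reach a mean of 20 CPM, leaving out predicted genes and immune receptor segments; up to 4 called members of each list by smallest p; the 10 smallest p-values for a difference between tissues; and 20 genes whatever their test. Other list members are named to account for a list's counts, or as examples chosen after their values were seen. Promoter windows come from RefSeq (GRCm38.p6) and were matched by transcript accession, or else by symbol or synonym, for 80.2% of the genes tested. No coordinate was converted between builds.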

Additional observations from a re-analysis of the deposited data

Results flagged for a closer look

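For 5 of the genes named, the libraries of one set moved up and those of another moved down between Ly6Cint and Ly6C-, with no overlap in either. The share of all tested genes with such a pattern was not counted, so the 5 cannot be called unusual. All but C1qc were named for a small p of the difference between blood and spleen. C1qc had a log2 ratio of -2.17 in host blood and -1.81 in host spleen and of 0.70 in 7-week blood, where all 3 Ly6C- libraries lay above all 3 Ly6Cint libraries (adjusted p = 0.123 there, limma). H2-Eb1 had a ratio of -2.53 in host blood, -1.80 in 16-week wt blood and 0.91 in 7-week blood. Adcy7 had a ratio of -0.09 in host blood, against 1.18 in host spleen, 0.98 in 7-week blood and 0.54 in 16-week wt blood. Its host blood values were close together, 301 and 316 CPM in Ly6Cint against 290.1 and 288 in Ly6C- (adjusted p = 0.901, limma). The differences between these sets of mice were not tested.

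Slc3a2, the heavy chain of an amino acid transporter, had a ratio of -0.99 in host blood (125 and 127 CPM in Ly6Cint against 60.9 and 65.3 in Ly6C-) and of 0.64 in host spleen (70.1 and 84.1 against 160 and 90.7). Fcgr2b, the inhibitory Fc receptor, had a ratio of 0.56 in host blood (173 and 142 against 213 and 249) and of -0.79 in host spleen (235 and 284 against 113 and 195). The difference between blood and spleen was tested for these genes in limma: the unadjusted p was 2.42e-04 for Adcy7, 7.75e-04 for Slc3a2 and 0.00166 for Fcgr2b, and the adjusted p was 0.925 for each. Adcy7, Slc3a2 and Fcgr2b were named for a small p of this same contrast, so these unadjusted p-values are no separate support.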

How the results depend on the processing

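Of the 88 genes named by rule, 73 were called, and none of these 73 reversed its direction under any of the 23 alternatives. A spread taken from all 26 libraries ended 48 of the 73 calls and a prior variance without a trend ended 57. Leaving out 1 library ended 17, each given in the report, and the other 13 settings ended 7 (Slc5a11, Igfbp4, Bcl2a1d, Dusp2, Tcf7l2, H2-Eb1 and Cd74). Over both tissues the count of 383 became 83 with all 26 libraries and 81 without a trend, and 201 to 605 on leaving out 1 library. The blood count of 66 became 13 with all 26 libraries, 114 with the 12 host libraries, 9 without a trend, 0 with every gene above 0 in 1 library, 175 with edgeR and 0 to 45 on leaving out 1 library. The spleen count of 105 became 26 with all 26 libraries, 45 with a pseudocount of 0.25, 6 with every gene above 0 in 1 library, 191 with array weights, 1 without a trend, 208 with edgeR and 0 to 61 on leaving out 1 library. The difference between tissues stayed at 0 calls on leaving out any 1 library and became 1 (H2-M2) with a pseudocount of 5 and without a trend. The 7-week count of 219 ranged from 26 to 1088, and the 16-week count of 5 from 0 to 1141, on leaving out 1 library. The causes were not tested.

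The libraries share only letters. Same-lettered libraries had deviations that correlated at 0.16 in blood and 0.108 in spleen over 6434 genes, and at -0.00213 to 0.0543 across tissues. With the letters as a replicate block over both tissues the blood count was 121. With a block for letter within tissue it was 152, the spleen count was 207, the count over both tissues was 510, and 5 genes were called for a difference between tissues: H2-Eb1, Ciita, H2-Aa, Cd209a and H2-Ab1. The block ended no call of a named gene.

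The ratios of 3 genes that were not called changed sign: Slc3a2 (-0.50 to 0.01 on leaving out 1 library, positive without blood Ly6C- A), Fcgr2b (-0.31 to 0.17, positive without spleen Ly6Cint B, 0.07, and without spleen Ly6C- A) and Klf2 (-0.023 to 0.20, negative without blood Ly6Cint A). At this depth, genes below a few CPM rest on single reads.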

Other observations

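Ribosomal protein genes had a negative median log2 ratio in each set of mice. In the hosts 58 of 77 had a negative log2 ratio, with a median of -0.23 over both tissues against 0.07 for all genes, and 2 of 77 were called, both lower, where 3.46% of all genes were called. In 7-week blood the median was -0.57 and 16 of 77 were called lower, against 106 lower of all 10562 genes. In 16-week wt blood the median was -0.34 and 0 of 76 were called, where limma called 5 of all 9813 genes. The summed level in the hosts was 32553 and 32206 CPM in blood Ly6Cint against 25955 and 27912 in blood Ly6C-, and 42257 and 38136 against 31694 and 35812 in spleen, with no overlap in either tissue.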
